A study of Arabidopsis thaliana with 8 samples.

Results

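The question addressed here was which genes responded differently to dehydration in the Arabidopsis double mutant enap1-1enap2 than in its wild type, Col-0. For each gene the interaction was taken as the log2 response to dehydration in enap1-1enap2 minus the log2 response in Col-0. A positive value means that the response of the mutant was the more positive one, whether the gene was induced or repressed. All genes were eligible by their locus identifier. Of 36799 genes in the count table, 27687 had a count in some library and 21614 had enough counts to be tested, and 3639 of them (16.8%) had a different response in the mutant. Among these were 730 of the 2164 genes that dehydration induced in Col-0, 494 of the 2535 genes that it repressed, and 2415 of the 16915 genes that were called neither way in Col-0.

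RNA was sequenced from whole 10-day-old seedlings of Col-0 and of enap1-1enap2, each under Mock and under Dehydration, which made 4 groups of 2 libraries. Mock seedlings lay for 4 h on filter paper with ½ MS medium, and dehydrated seedlings on the same medium with 25% PEG8000, a polymer that lowers the water potential outside the root. The mutant carries a deletion in ENAP1, made by genome editing, and T-DNA insertions in ENAP2 that lower its transcript without removing it. Thus 1 allele combination stands for the loss of both genes. The libraries were made from whole seedlings, in which fewer cells of a type and less RNA per cell cannot be told apart. With 2 libraries in each group, p-values measure only the spread between those libraries.

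Water deficit raises abscisic acid (ABA), which binds PYR/PYL/RCAR receptors, and the receptors then block clade A protein phosphatases 2C. SnRK2 kinases, released from the phosphatases, activate bZIP factors that bind ACGTG-containing promoter elements of protective genes such as dehydrins. Growth, nutrient uptake and ribosome production are commonly lowered in the same period. ENAP1 and ENAP2 are related histone-binding proteins that work together with transcription factors.

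Counts per library lay between 24007691 and 48279415. Levels are given as CPM, the counts of a gene scaled to a fixed library size after TMM normalization, so they compare libraries for 1 gene and not genes with each other, because they are not corrected for gene length. ENAP1 stood at 13.9 and 17.3 CPM in Col-0 Mock, 22.5 and 24.4 CPM in Col-0 Dehydration, 3.81 and 5.11 CPM in enap1-1enap2 Mock, and 12.2 and 11.5 CPM in enap1-1enap2 Dehydration. ENAP2 was at 9.32 and 7.76 CPM, 8.70 and 7.22 CPM, 3.096 and 3.51 CPM, and 4.06 and 4.93 CPM in the same order. Both genes were lower in the mutant libraries of each treatment than in the Col-0 libraries. Counts on ENAP1 come from what the deletion leaves, and ENAP2 shares 863 bases with AT5G05560, so its counts are uncertain.

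The 2 libraries of 1 group differed more than the others did. Col-0 Mock had 113 genes with a 2-fold or larger difference between its replicates, 109 of them higher in replicate 1, against 23 genes in Col-0 Dehydration, 1 gene in enap1-1enap2 Mock and 39 genes in enap1-1enap2 Dehydration. Of the 3639 genes with a different response, 48 had such a difference in some group. Counted from the other side, 43 of the 113 genes of Col-0 Mock had a different response, against 16.8% of all genes. It was 1 of the 23 genes of Col-0 Dehydration, 0 of the 1 of enap1-1enap2 Mock and 4 of the 39 of enap1-1enap2 Dehydration.

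Across the 21614 genes tested, the median interaction was 0.01 on the log2 scale and its median standard error (SE) was 0.19, and 90% of values lay between -1.01 and 1.24. Genes were called different at an adjusted p under 0.05 by the quasi-likelihood F test of edgeR with Benjamini-Hochberg adjustment. The response of the mutant was the more positive one for 1745 genes (8.07%) and the more negative one for 1894 genes (8.76%). A difference of more than 2-fold between the responses was seen for 958 genes (4.43%), with 545 in the positive direction (2.52%) and 413 in the negative direction (1.91%). The number of calls depended on the libraries used: it was 1801 without enap1-1enap2 Mock replicate 1, 1910 without enap1-1enap2 Mock replicate 2, 2363 without Col-0 Dehydration replicate 1 and 2418 without enap1-1enap2 Dehydration replicate 2.

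Induced and repressed genes were called in each genotype at the thresholds of the study, an unadjusted p under 0.01, an adjusted p under 0.05 and a change of more than 2-fold. In Col-0, dehydration induced 2164 genes (10.0%) and repressed 2535 (11.7%), and in enap1-1enap2 it induced 2715 genes (12.6%) and repressed 3048 (14.1%). Of the genes induced in Col-0, 445 were induced more strongly in the mutant and 285 had a lower response. Of the genes repressed in Col-0, 248 were repressed more strongly in the mutant and 246 had a less negative response. Of the genes not called in Col-0, 1054 had a higher and 1361 a lower response in the mutant. Different responses thus made up 33.7% of the genes induced in Col-0, 19.5% of those repressed and 14.3% of those not called, against 16.8% of all genes.

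The genes induced more strongly had a median response of 1.79 in Col-0 and 2.696 in enap1-1enap2 on the log2 scale, and those induced less a median of 1.68 and 0.72. The genes repressed more strongly had a median response of -1.48 in Col-0 and -2.53 in the mutant, and those repressed less a median of -1.64 and -0.61. In most genes with a weaker response the direction of Col-0 was kept, as 241 of 285 less induced genes and 205 of 246 less repressed genes had the same sign in both genotypes. The mutant passed the thresholds in the same direction for 103 of the 285 less induced genes and for 61 of the 246 less repressed genes. No gene was repressed in Col-0 and induced in the mutant, and 8 genes were induced in Col-0 but repressed in the mutant.

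**Figure D1:**
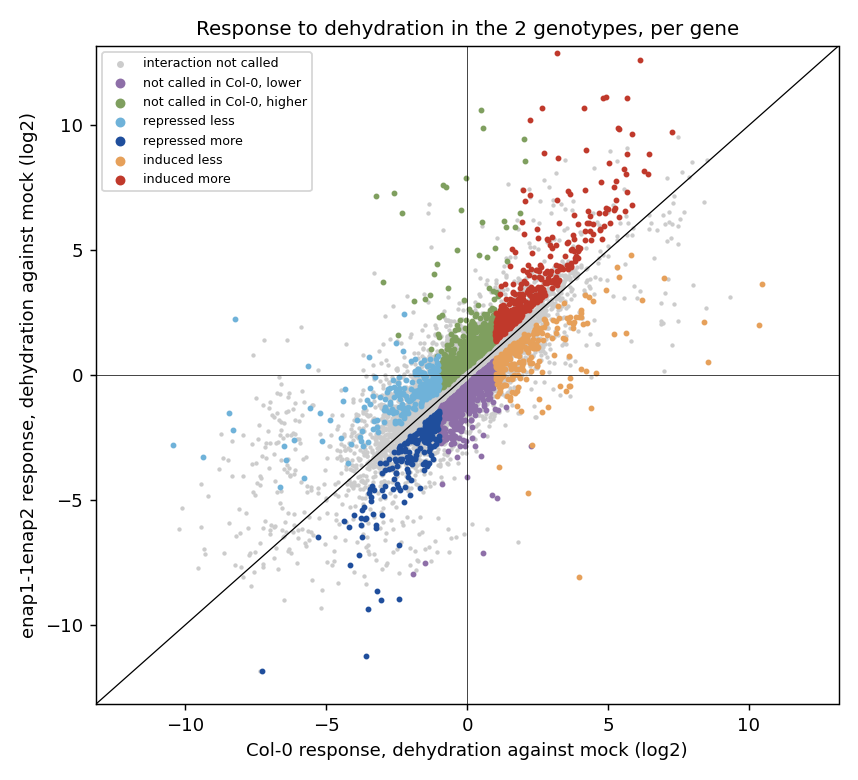
The log2 response to dehydration of each of the 21614 genes tested, with Col-0 on the horizontal axis and enap1-1enap2 on the vertical axis and the diagonal marking equal responses. Genes with a different response lie off the diagonal, 1745 above it and 1894 below it, and both sets reach into the induced and the repressed side of Col-0.

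The Col-0 libraries enter both the class of a gene and its interaction, so the split within a class moves with the rule that sets the class. With classes set by the mean response of both genotypes, 642 induced genes were higher and 171 lower, and 456 repressed genes were more strongly and 140 less strongly repressed in the mutant. With classes set by the response of enap1-1enap2 the counts were 877, 103, 726 and 61 in the same order. In this last rule the mutant libraries enter both the class and the interaction, which favours the sets with the stronger response in the mutant. Among induced genes the more strongly induced set was the larger one by the Col-0 rule and by the mean rule. Among repressed genes the sets were of like size by the Col-0 rule, and the more strongly repressed set was larger by the mean rule. Leaving out enap1-1enap2 Mock replicate 1 gave 176 less induced, 130 more repressed and 137 less repressed genes. Without enap1-1enap2 Mock replicate 2, 143 genes were more and 134 less repressed, and without Col-0 Dehydration replicate 1, 161 were more repressed.

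Genes with known ABA-dependent roles were among those with the smallest p of the genes induced more strongly in enap1-1enap2. RAB18, a dehydrin induced by ABA, stood at 23.96 and 27.3 CPM in Col-0 Mock, 943 and 1036 CPM in Col-0 Dehydration, 8.83 and 12.1 CPM in enap1-1enap2 Mock, and 2104 and 2433 CPM in enap1-1enap2 Dehydration. The mutant was thus lower than Col-0 under mock and higher under dehydration, with no overlap between any of the groups. Its response of 5.27 in Col-0 and 7.78 in the mutant gave an interaction of 2.51 ± 0.19 (SE, adjusted p = 1.93e-06 by the quasi-likelihood F test of edgeR with Benjamini-Hochberg adjustment). RAB18 shares 11 bases with AT5G66410, which leaves a small part of its counts uncertain.

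LTP4, a lipid transfer protein, had the same order of groups, with 4.54 and 4.34 CPM in Col-0 Mock, 217 and 208 CPM in Col-0 Dehydration, 1.42 and 1.07 CPM in enap1-1enap2 Mock, and 427 and 355 CPM in enap1-1enap2 Dehydration. HIS1-3, a linker histone variant that is induced by drought, was at 5.43 and 6.04 CPM, 27.0 and 24.03 CPM, 3.65 and 3.55 CPM, and 68.8 and 82.7 CPM in that order. Both were lowest in the mutant Mock libraries and highest in the mutant Dehydration libraries. The interaction was 2.67 ± 0.20 for LTP4 (adjusted p = 1.93e-06) and 2.24 ± 0.18 for HIS1-3 (adjusted p = 2.95e-06) by the quasi-likelihood F test of edgeR with Benjamini-Hochberg adjustment. The late embryogenesis abundant (LEA) gene AT5G66780 had the largest interaction of the leading genes of this class, 3.46 ± 0.26, and AT1G07985 had 2.56 ± 0.23.

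NCED3, the enzyme of the committed step of ABA synthesis under drought, stood at 13.99 and 14.5 CPM in Col-0 Mock, 322 and 313 CPM in Col-0 Dehydration, 7.06 and 6.26 CPM in enap1-1enap2 Mock, and 469.8 and 413 CPM in enap1-1enap2 Dehydration. The replicates lay close together in each group, and the 4 groups were again separate. Its interaction was 1.56 ± 0.14 (adjusted p = 8.2e-06 by the quasi-likelihood F test of edgeR with Benjamini-Hochberg adjustment). Of 13 tested genes of ABA synthesis and breakdown, 3 had a different response, all of them higher, or 23.1% against 16.8% of all genes, with a median interaction of 0.51 over the 13 that was 0.30 without enap1-1enap2 Mock replicate 1. The others were CYP707A1, an ABA 8'-hydroxylase that breaks ABA down, at 1.36, and NCED9 at 2.303, a gene below 2 CPM in every library.

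P5CS1, which makes proline as an osmolyte, stood at 144 and 168 CPM in Col-0 Mock, 1750.5 and 1882 CPM in Col-0 Dehydration, 103 and 108 CPM in enap1-1enap2 Mock, and 2198 and 2314 CPM in enap1-1enap2 Dehydration. Its response was larger in the mutant by 0.88 ± 0.14 (adjusted p = 0.000723 by the quasi-likelihood F test of edgeR with Benjamini-Hochberg adjustment). Of 14 tested genes of proline, galactinol and raffinose, 2 had a higher and 2 a lower response, or 28.6% called against 16.8% of all genes, and their median of 0.18 was 0.02 without Col-0 Mock replicate 1 and 0.11 without enap1-1enap2 Dehydration replicate 1.

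The dehydrins and other LEA proteins, which are thought to protect membranes and proteins in drying cells, were read as a list together with the RD29 and COR genes. A different response was found for 22 of the 27 members tested, or 81.5%, with 20 higher and 2 lower, against 16.8% of all genes. The median interaction was 1.101 over the 27 members, and 18 of them were in the more strongly induced class. Under mock the median difference of the mutant from Col-0 was -0.73, and the mock levels of 20 members differed between the genotypes.

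The size of several of these values rested on Col-0 Mock replicate 1. RD29B was at 43.2 CPM in Col-0 Mock replicate 1 and 4.82 CPM in replicate 2, 937 and 1049 CPM in Col-0 Dehydration, 1.93 and 2.29 CPM in enap1-1enap2 Mock, and 1853 and 1969 CPM in enap1-1enap2 Dehydration. LEA7 was at 30.5 and 9.28 CPM, 759 and 837 CPM, 2.59 and 1.83 CPM, and 2194 and 2157 CPM in the same order. The highest mock level of both genes was in Col-0 Mock replicate 1, but the second Col-0 Mock library was also above both mutant Mock libraries. The interaction of RD29B was 4.45 ± 0.85 with all 8 libraries, 2.16 without Col-0 Mock replicate 1 and 5.32 without replicate 2, and that of LEA7 was 4.56 ± 0.51 with all libraries and 3.48 without replicate 1.

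In the list, 7 of the 27 members were at least 2-fold higher in Col-0 Mock replicate 1 than in replicate 2, and 0 members the other way. Genes of seed maturation stood apart in the same library. The 6 tested markers of that stage, a list drawn up after the values were seen, summed to 60.6 CPM in Col-0 Mock replicate 1 and to between 2.52 and 5.32 CPM in the other 7 libraries, and the 12S globulin CRA1 was at 40.2 CPM in that library and 0.365 CPM in its replicate. Their part in the result was not tested. Without Col-0 Mock replicate 1 the list had 21 called members, 20 of them higher, and a median of 0.99, and without replicate 2 it had 24 called members, 22 of them higher, and a median of 0.80. Of the 22 members called with all libraries, 18 were called in both of these fits, while EM1, AtLEA4-1 and M10 lost the call without replicate 1 and COR314-TM2 without replicate 2. Members not called with all libraries also changed, as RD29A was called in both of these fits, XERO1 and ECP63 without replicate 2, and AT1G54410 without replicate 1. Without enap1-1enap2 Mock replicate 2, 14 members were called, all higher.

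RAB18 had an interaction of 2.604 without Col-0 Mock replicate 1 and 2.42 without replicate 2. EM1, a seed LEA protein, had 145 and 4 counts in Col-0 Mock, 316 and 444 counts in Col-0 Dehydration, 0 and 0 counts in enap1-1enap2 Mock, and 968 and 907 counts in enap1-1enap2 Dehydration. Dehydrated mutants were at least 299-fold above a floor of 3 counts per library, and dehydrated Col-0 was 8.56-fold above its mean mock level. EM1 owed that mean to Col-0 Mock replicate 1, at 3.785 CPM against 0.081 CPM in replicate 2, so the folds are not comparable. Its call was also lost without either enap1-1enap2 Mock library. RD29A, a neighbour of RD29B on the chromosome, stood at 552 and 866 CPM in Col-0 Mock, 7171 and 7469.6 CPM in Col-0 Dehydration, 339 and 339.8 CPM in enap1-1enap2 Mock, and 5419.9 and 5504 CPM in enap1-1enap2 Dehydration. The mutant was lower under both treatments, and the interaction of 0.64 ± 0.22 did not pass with all libraries (adjusted p = 0.0548 by the quasi-likelihood F test of edgeR with Benjamini-Hochberg adjustment). It passed in 6 of 17 alternatives, with adjusted p from 7.45e-07 to 0.169 over all of them, and was 0.93 without Col-0 Mock replicate 1 (adjusted p = 7.45e-07 in edgeR) and 0.28 without replicate 2 (adjusted p = 0.0196 in edgeR). Of 6 drought-responsive genes taken from the qPCR assays of the study, RAB18 and RD29B had a higher response and UGT74E2, DREB2C and RD28 a lower one, while the call of RD29A depended on these settings.

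**Figure D2:**
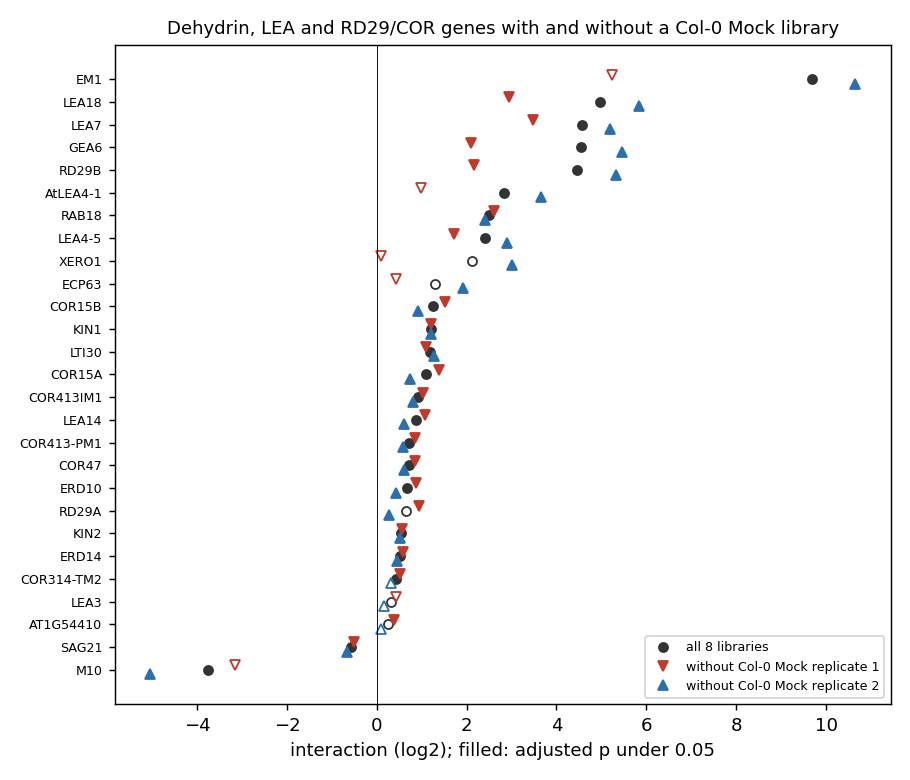
Interaction (log2) of each tested member of the dehydrin, LEA, RD29 and COR list, from all 8 libraries (black circles), without Col-0 Mock replicate 1 (red triangles pointing down) and without Col-0 Mock replicate 2 (blue triangles pointing up), filled where the adjusted p was under 0.05. RD29B moved from 4.45 to 2.16 without replicate 1, whereas RAB18 lay between 2.42 and 2.604.

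The promoters of these genes hold the ACGTG core of the ABA-responsive element, and 1 stretch of 90 bases is printed for 4 induced LEA genes and for 2 genes with a lower response, to show how the core lies before the start. Sequences are from the RefSeq TAIR10.1 genome, on the strand of the gene and 5′ to 3′, and capitals mark ACGTG or its complement CACGT, with CACGTG where both overlap. They lie upstream of the annotated gene start, at chr5:26519448-26519537 (minus strand) for RAB18, chr1:19619606-19619695 (plus) for LEA7, chr2:14863419-14863508 (minus) for LEA18, chr5:21236931-21237020 (plus) for RD29B, chr1:1704921-1705010 (minus) for UGT74E2 and chr5:6826232-6826321 (plus) for BCB.
RAB18: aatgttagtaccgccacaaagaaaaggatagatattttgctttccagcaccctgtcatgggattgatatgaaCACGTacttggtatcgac
LEA7: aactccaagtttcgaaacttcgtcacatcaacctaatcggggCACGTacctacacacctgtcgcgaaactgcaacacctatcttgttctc
LEA18: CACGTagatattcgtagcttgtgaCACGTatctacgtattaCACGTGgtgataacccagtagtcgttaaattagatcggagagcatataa
RD29B: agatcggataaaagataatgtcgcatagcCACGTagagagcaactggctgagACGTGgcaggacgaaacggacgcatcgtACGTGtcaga
UGT74E2: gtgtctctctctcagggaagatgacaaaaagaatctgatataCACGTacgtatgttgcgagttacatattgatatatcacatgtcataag
BCB: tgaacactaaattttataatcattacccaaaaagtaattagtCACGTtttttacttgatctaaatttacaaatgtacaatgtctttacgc

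In the 250 bases before the start, counting both strands, the core was found 3 times for RAB18, 5 times for LEA7, 4 times for LEA18 and 4 times for RD29B, and 1 time each for UGT74E2 and BCB. LEA18 itself stood at 11.9 and 1.58 CPM in Col-0 Mock, 31.2 and 30.1 CPM in Col-0 Dehydration, 0.305 and 0.382 CPM in enap1-1enap2 Mock, and 50.6 and 49.8 CPM in enap1-1enap2 Dehydration, and its interaction of 4.97 was 2.94 without Col-0 Mock replicate 1. ACGTG was in 23.9% of all 21613 promoters read, 46.1% of those of the 445 genes induced more strongly in the mutant, 31.6% of those of the 285 genes induced less and 36.5% of those of the induced genes with no different response. In the LEA list it was in 70.4% of promoters, and in the autophagy list, whose calls were all higher, in 36%. Lists with mostly or only lower calls varied. The core was in 60% of promoters for jasmonate and JAZ genes, 50% for glucosinolate genes and 23.8% for nitrate genes. It was in 20.4% for cytosolic ribosomal proteins and 10.3% for aquaporins. Among genes repressed in Col-0 it was in 26.2% of those repressed more and 22.4% of those repressed less, close to the share of all promoters. CACGTG, which contains the core and counts as 2 matches of it, was in 7.44% of all promoters, 21.3% of those induced more and 10.9% of those induced less. In induced genes with no different response its share was 16.2%. CCGAC, the core of the element bound by DREB factors, was in 12.8% of all promoters, 21.6% of those induced more and 20.4% of those induced less. In induced genes with no different response its share was 17.9%. These shares describe letters in a window and say nothing of binding.

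In the core of ABA signalling, the receptors that were called had lower responses and the phosphatases they inhibit had higher ones. Of 30 tested receptors, clade A phosphatases and SnRK2 kinases, 15 had a different response, 11 higher and 4 lower, with a median interaction of 0.28. The 4 lower genes were all receptors, PYL4 at -1.41, PYL5 at -1.39, PYL6 at -2.18 and RCAR3 at -0.69. These 15 were 50% of the list, against 16.8% of all genes. The higher ones were phosphatases, such as HAI2 at 1.01, HAI1 at 0.95 and ABI2 at 0.77, and kinases, such as SNRK2.7 at 1.23 and OST1, which closes stomata, at 0.57. HAI3, another phosphatase, had 2.32 with all libraries but 0.52 without Col-0 Mock replicate 1, in which it was at 2.14 CPM against 0.324 CPM in the replicate, and its call was lost in 8 of 17 alternatives, among them DESeq2, limma-voom and every fit without 1 library but those without Col-0 Mock replicate 2 or enap1-1enap2 Dehydration replicate 1. PYL4 is described below with the repressed genes.

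Called transcription factors of drought and ABA responses were higher with 1 exception. Of 38 tested, 12 had a higher and 1 a lower response, or 34.2% called against 16.8% of all genes, with a median interaction of 0.40 that was 0.24 without Col-0 Dehydration replicate 1. The higher ones included FBH3 at 1.25, HB-12, a homeodomain factor induced by water deficit, at 1.19, RD26, a NAC factor, at 1.02, and the bZIP factors GBF3 at 1.02, ABF3 at 0.79 and ABF2 at 0.69. The lower one was DREB2C.

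The genes induced less in enap1-1enap2 were led by stress genes outside the LEA list. UGT74E2, a glycosyltransferase that acts on the auxin indole-3-butyric acid, stood at 28.5 and 28.9 CPM in Col-0 Mock, 351 and 295 CPM in Col-0 Dehydration, 76.6 and 79.3 CPM in enap1-1enap2 Mock, and 221 and 201 CPM in enap1-1enap2 Dehydration. The mutant was above Col-0 under mock and below it under dehydration, the reverse of RAB18. Its response was 3.49 in Col-0 and 1.44 in the mutant, an interaction of -2.05 ± 0.13 (adjusted p = 6.76e-07 by the quasi-likelihood F test of edgeR with Benjamini-Hochberg adjustment).

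BCB, a blue copper-binding protein induced by stress, stood at 7.10 and 7.82 CPM in Col-0 Mock, 42.7 and 44.2 CPM in Col-0 Dehydration, 13.7 and 12.5 CPM in enap1-1enap2 Mock, and 18.4 and 20.9 CPM in enap1-1enap2 Dehydration. DREB2C, a factor that binds CCGAC-type elements, was at 8.25 and 6.69 CPM, 110.4 and 97.5 CPM, 14.9 and 15.4 CPM, and 70.2 and 62.5 CPM in that order. In both genes all mock levels of the mutant lay above those of Col-0 and all dehydration levels below. The interaction was -1.96 ± 0.16 for BCB (adjusted p = 2.95e-06) and -1.67 ± 0.16 for DREB2C (adjusted p = 1.26e-05) by the quasi-likelihood F test of edgeR with Benjamini-Hochberg adjustment. NFXL1, a zinc finger regulator of stress responses, went from 54.9 and 47.9 CPM to 417 and 413 CPM in Col-0 and from 79.4 and 80.5 CPM to 222 and 220.1 CPM in the mutant, an interaction of -1.55 ± 0.12, and it shares 4 bases with AT1G10180.

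Some genes of the class were hardly induced in the mutant or were lower after dehydration. AT1G76600 stood at 11.2 and 11.8 CPM in Col-0 Mock, 41.7 and 42.3 CPM in Col-0 Dehydration, 16.5 and 16.3 CPM in enap1-1enap2 Mock, and 15.7 and 14.5 CPM in enap1-1enap2 Dehydration, so the mutant levels lay between the Col-0 levels under either treatment. AT5G40450 was at 74.5 and 58.7 CPM, 177 and 176 CPM, 120.2 and 122 CPM, and 67.4 and 68.2 CPM in the same order. For AT5G40450 the response was 1.41 in Col-0 and -0.84 in the mutant, and the interaction was -2.24 ± 0.14 (adjusted p = 6.36e-07 by the quasi-likelihood F test of edgeR with Benjamini-Hochberg adjustment). It shares 21 bases with AT5G40440. AT2G36780, a UDP-glycosyltransferase, had an interaction of -3.19 ± 0.25, but 16.5% of its 31-base stretches occur elsewhere in the genome, so its counts are uncertain.

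Aquaporins, the channels that carry water across membranes, had 8 members with a different response among 29 tested, all 8 lower, 6 of them in the less induced class, and a median interaction of -0.24. This is 27.6% called against 16.8% of all genes, and without Col-0 Mock replicate 2 there were 12 calls, 2 of them higher. RD28, a plasma membrane aquaporin, stood at 62.5 and 81.0 CPM in Col-0 Mock, 307 and 424 CPM in Col-0 Dehydration, 47.3 and 45.4 CPM in enap1-1enap2 Mock, and 96.8 and 102 CPM in enap1-1enap2 Dehydration. Here the mutant was the lower genotype under both treatments, with the wider gap after dehydration. The interaction was -1.25 ± 0.19 for RD28 (adjusted p = 0.000458) and -0.95 ± 0.17 for its relative PIP2B (adjusted p = 0.00182) by the quasi-likelihood F test of edgeR with Benjamini-Hochberg adjustment. The 2 genes share sequence with relatives, with 21.5% and 19.5% of their 31-base stretches repeated, so reads could be split between them.

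Jasmonate synthesis and JAZ repressor genes had 11 members with a different response among 25, 10 lower and 1 higher, or 44% against 16.8% of all genes. The median interaction was -0.35, and it was -0.57 without enap1-1enap2 Dehydration replicate 1 and -0.22 without replicate 2. LOX3, a lipoxygenase at the start of jasmonate synthesis, stood at 9.03 and 10.2 CPM in Col-0 Mock, 42.9 and 33.2 CPM in Col-0 Dehydration, 11.3 and 12.4 CPM in enap1-1enap2 Mock, and 19.3 and 15.1 CPM in enap1-1enap2 Dehydration. Mock levels lay between 9.03 and 12.4 CPM, and both dehydrated mutants were below both dehydrated Col-0 libraries. Its interaction was -1.44 ± 0.20 (adjusted p = 0.000267 by the quasi-likelihood F test of edgeR with Benjamini-Hochberg adjustment), and that of LOX4 was -1.69. JAZ10 had -1.75 ± 0.33 but shares 71 bases with AT5G02045. AOC4, an allene oxide cyclase of the same pathway, was the higher one at 0.88.

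Among called heat shock proteins and cysteine-rich receptor-like kinases the lower direction was the more frequent one. Of 24 heat shock proteins 2 had a higher and 9 a lower response, and of 31 kinases 1 a higher and 7 a lower response, which made 45.8% and 25.8% called against 16.8% of all genes, with medians of -0.33 in both lists. The count of heat shock proteins was 4, with 2 in each direction, without enap1-1enap2 Mock replicate 1, 5 without Col-0 Dehydration replicate 1, and 7 without enap1-1enap2 Mock replicate 2 or enap1-1enap2 Dehydration replicate 2. The median of the kinases was -0.57 without Col-0 Mock replicate 2, -0.52 without enap1-1enap2 Dehydration replicate 2, and between -0.20 and -0.18 without Col-0 Mock replicate 1, enap1-1enap2 Mock replicate 1 or Col-0 Dehydration replicate 2.

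The study thresholds were passed in opposite directions by 8 genes, all of them induced in Col-0 but repressed in the mutant. RAP2.9, an ERF-type transcription factor, stood at 4.99 and 4.09 CPM in Col-0 Mock, 14.8 and 16.0 CPM in Col-0 Dehydration, 9.19 and 8.47 CPM in enap1-1enap2 Mock, and 4.55 and 2.81 CPM in enap1-1enap2 Dehydration. The dehydrated mutants overlapped Col-0 Mock, and the mutant Mock libraries lay between the Col-0 groups. The response was 1.76 in Col-0 and -1.24 in the mutant, with an interaction of -3.01 ± 0.29 (adjusted p = 1.45e-05 by the quasi-likelihood F test of edgeR with Benjamini-Hochberg adjustment). DIN11, a dioxygenase first described from dark-treated leaves, was at 8.22 and 5.55 CPM, 47.5 and 51.4 CPM, 29.4 and 27.0 CPM, and 18.6 and 3.69 CPM in that order, with a wide gap between the dehydrated mutants. Its interaction was -4.15 ± 0.56 (adjusted p = 0.000187 by the same edgeR test).

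The other 6 were AT1G05675, a neighbour of UGT74E2 in the same family, at -3.38, the glutathione S-transferase GSTU11 at -4.11, the multidrug exporter AT3G23550 at -4.82, AT4G12735 at -5.12, the sucrose transporter SUC7 at -6.87 and TDR1. AT3G23550 shares 69 bases with AT3G23540, and 22.7% of the 31-base stretches of SUC7 occur elsewhere, so both are uncertain. TDR1 had 0 and 8 counts in Col-0 Mock, 38 and 28 counts in Col-0 Dehydration, 46 and 22 counts in enap1-1enap2 Mock, and 0 and 0 counts in enap1-1enap2 Dehydration. The mutant was at least 10.9-fold lower after dehydration, taken against a floor of 3 counts per library, and the counts of this gene were low throughout.

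The leading genes among those repressed more strongly in enap1-1enap2 included a peroxidase, transporters and genes of glucosinolate synthesis. AT5G64120, a cell wall peroxidase, stood at 217 and 246 CPM in Col-0 Mock, 21.0 and 17.1 CPM in Col-0 Dehydration, 377 and 366 CPM in enap1-1enap2 Mock, and 6.82 and 7.14 CPM in enap1-1enap2 Dehydration. Its level was highest in the mutant under mock and lowest in the mutant after dehydration. The response was -3.60 in Col-0 and -5.74 in the mutant, with an interaction of -2.13 ± 0.15 (adjusted p = 1.8e-06 by the quasi-likelihood F test of edgeR with Benjamini-Hochberg adjustment).

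AMT1;3, a root ammonium transporter, stood at 21.2 and 23.7 CPM in Col-0 Mock, 4.24 and 3.82 CPM in Col-0 Dehydration, 31.9 and 31.4 CPM in enap1-1enap2 Mock, and 1.55 and 1.48 CPM in enap1-1enap2 Dehydration. PYL4, the ABA receptor named above, was at 36.1 and 41.3 CPM, 6.95 and 6.58 CPM, 66.1 and 65.5 CPM, and 4.03 and 4.64 CPM in that order. Both had the order of groups seen for the peroxidase. The interaction was -1.90 ± 0.20 for AMT1;3 (adjusted p = 3.32e-05) and -1.41 ± 0.17 for PYL4 (adjusted p = 6.69e-05) by the quasi-likelihood F test of edgeR with Benjamini-Hochberg adjustment.

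AT2G45180, a lipid transfer-like protein, stood at 353 and 399 CPM in Col-0 Mock, 33.8 and 32.7 CPM in Col-0 Dehydration, 670.2 and 681 CPM in enap1-1enap2 Mock, and 24.3 and 26.5 CPM in enap1-1enap2 Dehydration. Most of its interaction of -1.24 ± 0.13 lay in the mock level of the mutant, above Col-0, with a smaller gap after dehydration. AT1G22690, a gibberellin-regulated gene that shares 11 bases with AT1G22700, had an interaction of -2.17 ± 0.21, and AT1G11670, a MATE transporter, one of -1.55 ± 0.16.

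Glucosinolates are defence compounds of the cabbage family, and those made from methionine need a chain-elongation step and the cytochrome P450 CYP79F1. Of 24 tested genes of this pathway, 13 had a lower and 0 a higher response, 11 of them in the more strongly repressed class, or 54.2% called against 16.8% of all genes, with a median interaction of -0.44. CYP79F1 stood at 224 and 255.6 CPM in Col-0 Mock, 33.1 and 26.7 CPM in Col-0 Dehydration, 243 and 234 CPM in enap1-1enap2 Mock, and 9.05 and 10.9 CPM in enap1-1enap2 Dehydration. The mock levels of the genotypes overlapped, and the difference lay after dehydration. IPMI1, an isomerase of the chain-elongation step, was at 99.7 and 119 CPM, 4.69 and 5.94 CPM, 103 and 104 CPM, and 1.63 and 2.04 CPM in the same order, again with overlap only under mock. The interaction was -1.58 ± 0.16 for CYP79F1 (adjusted p = 2.3e-05) and -1.47 ± 0.21 for IPMI1 (adjusted p = 0.000246) by the quasi-likelihood F test of edgeR with Benjamini-Hochberg adjustment. The regulator MYB29 was at -1.19, CYP83A1 at -1.04 and the elongase MAM1 at -0.92.

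Expansins and XTH enzymes, which loosen cell walls in growing tissue, had 12 members with a lower and 3 with a higher response among 49, or 30.6% called against 16.8% of all genes, and 6 members in the more strongly repressed class. Their median was -0.36 with all libraries, -0.09 without enap1-1enap2 Dehydration replicate 1, and between -0.22 and -0.13 without Col-0 Mock replicate 2, enap1-1enap2 Mock replicate 2 or either Col-0 Dehydration library. EXPA10 was induced in Col-0, from 138 and 186 CPM in Mock to 652 and 621 CPM in Dehydration, while the mutant had 167 and 181 CPM in Mock and 272 and 218 CPM in Dehydration. The mock levels overlapped, and each dehydrated mutant was below each dehydrated Col-0 library, with an interaction of -1.48 ± 0.18 (adjusted p = 9.48e-05 by the quasi-likelihood F test of edgeR with Benjamini-Hochberg adjustment). This list had 8 calls without enap1-1enap2 Mock replicate 1 and 9 without Col-0 Dehydration replicate 1.

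Markers of root cell types moved with dehydration in both genotypes. The 6 root hair markers summed to between 37.6 and 53.1 CPM in the mock libraries, and none of them was at 0 there. They summed to between 3.99 and 4.06 CPM in Col-0 Dehydration and between 3.101 and 3.52 CPM in enap1-1enap2 Dehydration. Of the 6, 2 had a lower response, or 33.3% against 16.8% of all genes, and 3 had a positive interaction. The call of PRP3, a marker with a lower response, was lost in 8 of 17 alternatives. The 7 endodermis markers summed to between 69.9 and 101.6 CPM under mock and between 25.4 and 32.6 CPM after dehydration, and 0 of the 7 had a different response. A count of 0 was found for 1 of the 7 in 3 libraries. Their part in the results for repressed genes was not tested.

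Genes repressed less in enap1-1enap2 included genes of oxidation and of defence. DOX1, an alpha-dioxygenase that oxidizes fatty acids, stood at 807 and 664 CPM in Col-0 Mock, 106 and 91.0 CPM in Col-0 Dehydration, 555 and 555 CPM in enap1-1enap2 Mock, and 224 and 235 CPM in enap1-1enap2 Dehydration. The mutant lay below Col-0 under mock and above it after dehydration, so its range was narrower at both ends. The response was -2.90 in Col-0 and -1.27 in the mutant, with an interaction of 1.63 ± 0.15 (adjusted p = 9.59e-06 by the quasi-likelihood F test of edgeR with Benjamini-Hochberg adjustment).

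WRKY70, a regulator of salicylate and jasmonate defence, stood at 13.6 and 9.02 CPM in Col-0 Mock, 3.43 and 3.74 CPM in Col-0 Dehydration, 4.95 and 5.53 CPM in enap1-1enap2 Mock, and 8.43 and 6.19 CPM in enap1-1enap2 Dehydration. Its response was -1.65 in Col-0 and 0.49 in the mutant, which did not pass as an induction, and the interaction was 2.15 ± 0.32 (adjusted p = 0.000355 by the quasi-likelihood F test of edgeR with Benjamini-Hochberg adjustment). Among 24 salicylate and defence genes, 4 had a different response, all higher, or 16.7% against 16.8% of all genes, and the median was 0.17, which was between 0.34 and 0.47 without enap1-1enap2 Mock replicate 1, Col-0 Dehydration replicate 2 or enap1-1enap2 Dehydration replicate 2, and 0.11 without enap1-1enap2 Dehydration replicate 1. They included PBS3, an enzyme of salicylate synthesis, at 1.38 and its regulator CBP60G at 1.00, whose call was lost with limma-voom and without Col-0 Mock replicate 1, either Col-0 Dehydration library, enap1-1enap2 Mock replicate 2 or enap1-1enap2 Dehydration replicate 1. Leaving out Col-0 Dehydration replicate 1, enap1-1enap2 Dehydration replicate 1 or enap1-1enap2 Mock replicate 2 gave 2 calls in this list.

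Class III peroxidases are secreted enzymes of the cell wall, and they moved in both directions. Of 60 tested, 8 had a higher and 3 a lower response, which is 18.3% and close to the share of all genes, with a median of -0.04 that lay between -0.21 and 0.01 without 1 library, and 6 of the 8 were in the less repressed class. AT2G18150 stood at 34.4 and 33.9 CPM in Col-0 Mock, 12.7 and 6.45 CPM in Col-0 Dehydration, 38.2 and 37.6 CPM in enap1-1enap2 Mock, and 43.5 and 35.5 CPM in enap1-1enap2 Dehydration, so the mutant overlapped its own mock level. Its interaction was 1.90 ± 0.26 (adjusted p = 0.000205 by the quasi-likelihood F test of edgeR with Benjamini-Hochberg adjustment), and 9.81% of its 31-base stretches are repeated elsewhere. PER4 was at 1.69 and PRXCB at 1.05, while AT5G64120, described above, was among the lower members. The list had 6 calls without enap1-1enap2 Mock replicate 2 or enap1-1enap2 Dehydration replicate 1 and 7 without enap1-1enap2 Mock replicate 1.

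AT5G38910, a germin-like cupin protein, stood at 18.4 and 14.9 CPM in Col-0 Mock, 0.541 and 0.340 CPM in Col-0 Dehydration, 2.33 and 2.67 CPM in enap1-1enap2 Mock, and 0.827 and 0.915 CPM in enap1-1enap2 Dehydration. The mutant was far below Col-0 under mock and slightly above it after dehydration, and the interaction was 3.72 ± 0.41 (adjusted p = 4.06e-05 by the quasi-likelihood F test of edgeR with Benjamini-Hochberg adjustment). The lectin-like gene AT1G52000 was at 149 and 131 CPM, 43.8 and 41.3 CPM, 121 and 120.0 CPM, and 89.6 and 113 CPM in the same order, with an interaction of 1.46 ± 0.15. Further leading genes of the class were AT1G13520 at 2.92 ± 0.29, AT2G18690 at 1.55 ± 0.15 and the glycosyltransferase AT2G22590 at 1.101 ± 0.12.

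**Figure D3:**
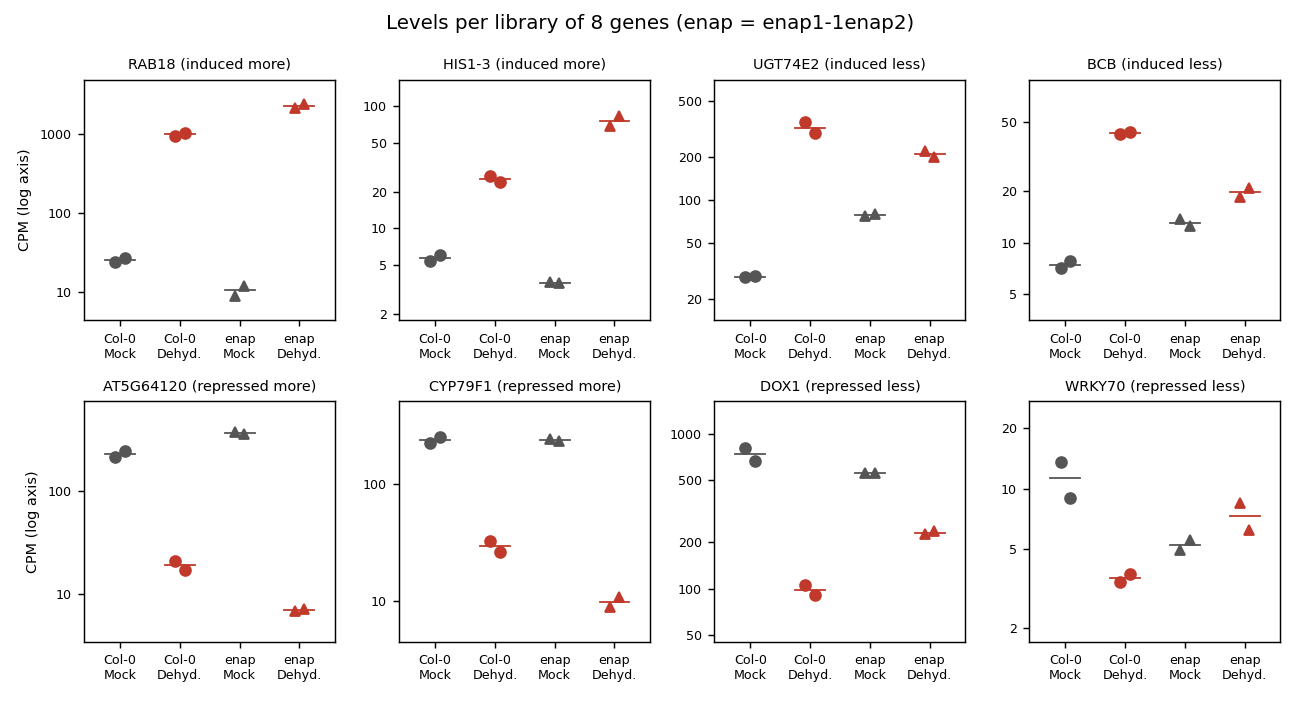
CPM on a log axis of 8 genes, 2 from each class, in each library (circles Col-0, triangles enap1-1enap2, grey Mock, red Dehydration, line at the group mean). RAB18 and HIS1-3 are lowest in mutant Mock and highest in mutant Dehydration, AT5G64120 the reverse, and UGT74E2, BCB and DOX1 span a narrower range in the mutant.

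A different response can lie in the mock level of the mutant, in its level after dehydration, or in both. Against Col-0, the level of 1550 genes differed under mock (7.17%) and of 3176 genes after dehydration (14.7%), at an adjusted p under 0.05. Of the 445 genes induced more strongly, 120 differed only under mock, 177 only after dehydration, 85 under both treatments and 63 under neither. For 205 of them the mutant was lower under mock, and for 259 it was higher after dehydration. The mock share was smaller in the other induced class, in which 35 of 285 genes differed only under mock, 140 only after dehydration, 65 under both and 45 under neither.

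Among repressed genes, 38 of the 248 repressed more strongly differed only under mock, 142 only after dehydration, 24 under both and 44 under neither. Of the 246 repressed less, 68 differed only under mock, 113 only after dehydration, 20 under both and 45 under neither, and the mutant was lower than Col-0 under mock for 87 of them. Where both treatments differed, the signs were opposite in nearly all genes, namely in 82 of 85 genes induced more, 59 of 65 induced less, 22 of 24 repressed more and 19 of 20 repressed less. Choosing genes by their interaction favours opposite signs. A difference called under 1 treatment alone was not tested against the other beyond the interaction itself.

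**Figure D4:**
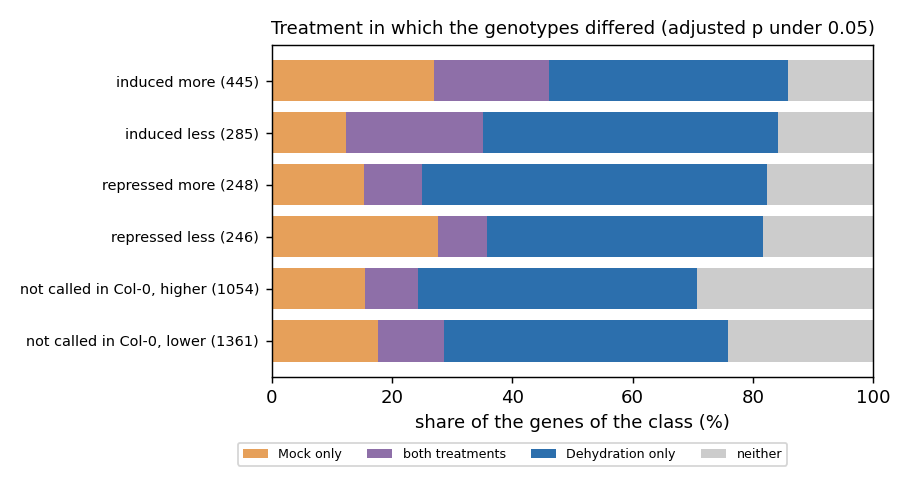
Share (%) of the genes of each class whose level in enap1-1enap2 differed from Col-0 under mock only, after dehydration only, under both treatments or under neither, at an adjusted p under 0.05. The dehydration-only share is 39.8% in genes induced more, 49.1% in genes induced less, 57.3% in genes repressed more and 45.9% in genes repressed less.

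Most genes with a different response were not called in Col-0, namely 2415 of 3639. Of these, the mutant induced 432 and repressed 470 at the study thresholds, and 1513 were called in neither genotype, 622 with a higher and 891 with a lower response. Differences among these 1513 were mostly small, and 112 were over 2-fold. AT3G28270 stood at 159 and 169 CPM in Col-0 Mock, 195 and 176 CPM in Col-0 Dehydration, 90.2 and 87.3 CPM in enap1-1enap2 Mock, and 389 and 379.7 CPM in enap1-1enap2 Dehydration. ELIP1, a light-stress protein of the chloroplast, was at 147 and 154 CPM, 176 and 171 CPM, 91.8 and 93.5 CPM, and 275 and 266 CPM in that order. In both, the Col-0 levels were close under the 2 treatments, and the mutant was below them under mock and above them after dehydration. The interaction was 1.94 ± 0.12 for AT3G28270 (adjusted p = 6.36e-07) and 1.35 ± 0.11 for ELIP1 (adjusted p = 2.97e-06) by the quasi-likelihood F test of edgeR with Benjamini-Hochberg adjustment.

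In the lower direction, AT2G32240 stood at 138 and 132 CPM in Col-0 Mock, 211 and 240.3 CPM in Col-0 Dehydration, 176 and 172 CPM in enap1-1enap2 Mock, and 87.1 and 90.1 CPM in enap1-1enap2 Dehydration. SUC1, a sucrose transporter, was at 100.5 and 111 CPM, 55.9 and 53.4 CPM, 129 and 125 CPM, and 23.8 and 20.5 CPM in the same order. AT2G32240 was higher after dehydration in Col-0 and lower in the mutant, whereas SUC1 was lower in both, and further so in the mutant. Their interactions were -1.72 ± 0.12 (adjusted p = 1.45e-06) and -1.57 ± 0.13 (adjusted p = 3.51e-06) by the quasi-likelihood F test of edgeR with Benjamini-Hochberg adjustment.

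Nitrate uptake and assimilation genes were mostly lower, as 14 of 21 tested had a lower and 1 a higher response, or 71.4% called against 16.8% of all genes, with a median interaction of -0.81 against 0.01 over all genes. NIA1, a nitrate reductase, stood at 228 and 280.3 CPM in Col-0 Mock, 1007 and 820.4 CPM in Col-0 Dehydration, 349.6 and 336 CPM in enap1-1enap2 Mock, and 472 and 517 CPM in enap1-1enap2 Dehydration. NRT1.8, a nitrate transporter that unloads the xylem, was at 5.38 and 4.50 CPM, 47.7 and 55.6 CPM, 9.36 and 7.48 CPM, and 28.4 and 18.3 CPM in that order. Both had higher mock levels and lower dehydration levels in the mutant. The interaction was -1.32 ± 0.16 for NIA1 (adjusted p = 9.95e-05) and -1.93 ± 0.26 for NRT1.8 (adjusted p = 0.000164) by the quasi-likelihood F test of edgeR with Benjamini-Hochberg adjustment, and NRT1.8 shares 44 bases with AT4G21670. ASN1, an asparagine synthetase, had 6.47 and 7.90 CPM, 19.2 and 12.1 CPM, 18.3 and 21.4 CPM, and 10.5 and 13.9 CPM in the same order, with overlap of the dehydrated groups and an interaction of -1.82 ± 0.27. GLN1;4, a glutamine synthetase, was the higher member.

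Ribosomal proteins of the cytosol that were called were all lower. Of 142 tested, 32 had a lower and 0 a higher response, or 22.5% against 16.8% of all genes, with a median of -0.25 that was -0.15 without Col-0 Mock replicate 1, and 27 were repressed in the mutant against 7 in Col-0. AT2G20450, of the L14 family, stood at 123 and 135 CPM in Col-0 Mock, 75.4 and 79.5 CPM in Col-0 Dehydration, 145 and 145 CPM in enap1-1enap2 Mock, and 51.5 and 53.4 CPM in enap1-1enap2 Dehydration. AT3G16780, of the L19e family, was at 122 and 141 CPM, 91.7 and 90.6 CPM, 171 and 174 CPM, and 73.8 and 70.6 CPM in the same order. In both, the mutant was the higher genotype under mock and the lower after dehydration, though the mock difference of AT2G20450 was not called. The interactions were -0.73 ± 0.11 (adjusted p = 0.00053) and -0.72 ± 0.12 (adjusted p = 0.000911) by the quasi-likelihood F test of edgeR with Benjamini-Hochberg adjustment. Over the 142 members the median difference of the mutant from Col-0 was 0.03 under mock, where 3 members differed. After dehydration it was -0.20, and 46 members differed.

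Calls over all genes also moved when 1 library was left out, so the share of 22.5% against 16.8% holds for all 8 libraries only. The count of ribosomal protein genes depended on single libraries. It was 12 without enap1-1enap2 Mock replicate 1, 13 without enap1-1enap2 Mock replicate 2, 16 and 20 without enap1-1enap2 Dehydration replicate 1 and replicate 2, 19 without Col-0 Dehydration replicate 1 and 75 without Col-0 Mock replicate 2. Of 31 plastid ribosomal proteins, 2 had a different response, 1 in each direction, or 6.45% against 16.8% of all genes. Their median of -0.04 lay between -0.14 and 0.07 without 1 library, and their count also depended on the libraries used. The plastid and cytosolic sets were not tested against each other.

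TGGGCC, the site II element known from promoters of ribosomal protein genes, was in 55.6% of the promoters of the 142 cytosolic members and in 15.8% of all promoters, searched on both strands. It was in 20.6% of the promoters of genes not called in Col-0 with a lower response, and in 8.47% and 6.91% of those of genes repressed more and less. A stretch of 90 bases before the start of each of the 2 genes above, from the same RefSeq genome, shows the element in capitals, written GGCCCA where it lies on the other strand. They lie at chr2:8813741-8813830 and chr3:5708733-5708822, both on the plus strand.
AT2G20450: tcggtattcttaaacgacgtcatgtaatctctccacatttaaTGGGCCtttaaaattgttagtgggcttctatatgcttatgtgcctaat
AT3G16780: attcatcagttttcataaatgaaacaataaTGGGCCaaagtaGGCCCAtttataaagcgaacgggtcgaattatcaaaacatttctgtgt

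Autophagy genes, which direct the breakdown of cell contents in starvation and stress, had 11 of 25 members with a different response, all higher, or 44% against 16.8% of all genes, and a median of 0.42. APG8A, an ubiquitin-like protein of the autophagosome membrane, stood at 34.7 and 30.0 CPM in Col-0 Mock, 47.1 and 47.2 CPM in Col-0 Dehydration, 22.9 and 23.0 CPM in enap1-1enap2 Mock, and 74.2 and 69.4 CPM in enap1-1enap2 Dehydration. No groups overlapped, and the interaction was 1.102 ± 0.13 (adjusted p = 7.09e-05 by the quasi-likelihood F test of edgeR with Benjamini-Hochberg adjustment), with 27 bases shared with another gene. ATG8C at 0.82 and ATG8E at 0.81 were the next members of that family, and ATG8E lost its call without enap1-1enap2 Mock replicate 1. The list had 6 calls without enap1-1enap2 Mock replicate 1 and 7 without replicate 2.

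Light harvesting and photosystem genes had 8 higher and 2 lower members among 37, or 27% against 16.8% of all genes, with a median of 0.31 that was 0.17 without Col-0 Mock replicate 2. Core histones had 8 higher and 0 lower among 46, or 17.4% and close to the share of all genes, with a median of 0.30. Of 31 cyclins and CDKs, 2 had a higher and 0 a lower response, or 6.45%, below the 16.8% of all genes. Their median of 0.24 lay between 0.03 and 0.25 without 1 library. The calls of CDKB1;1 and CYCD3;2 were lost in 7 and 9 of 17 alternatives. The counts for light harvesting and histones were not stable over the libraries. For light harvesting it was 6 without Col-0 Dehydration replicate 1 or either enap1-1enap2 Mock library and 30 without Col-0 Mock replicate 1, and for histones 17 without Col-0 Mock replicate 1 and between 2 and 4 without any other library but Col-0 Mock replicate 2 and enap1-1enap2 Dehydration replicate 1. The 6 shoot markers summed to between 26080 and 31680 CPM under mock, 20770 and 21240 CPM in Col-0 Dehydration, and 14860 and 16260 CPM in enap1-1enap2 Dehydration, and the 5 guard cell markers to 51.6 and 54.8 CPM in Col-0 Dehydration and 39.0 and 42.3 CPM in enap1-1enap2 Dehydration. Of the shoot markers 1 had a higher and 1 a lower response. Of the guard cell markers 1, FMA, had a lower response, and its call was lost in 8 of 17 alternatives, DESeq2 among them. The part of these markers in the results was not tested.

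**Figure D5:**
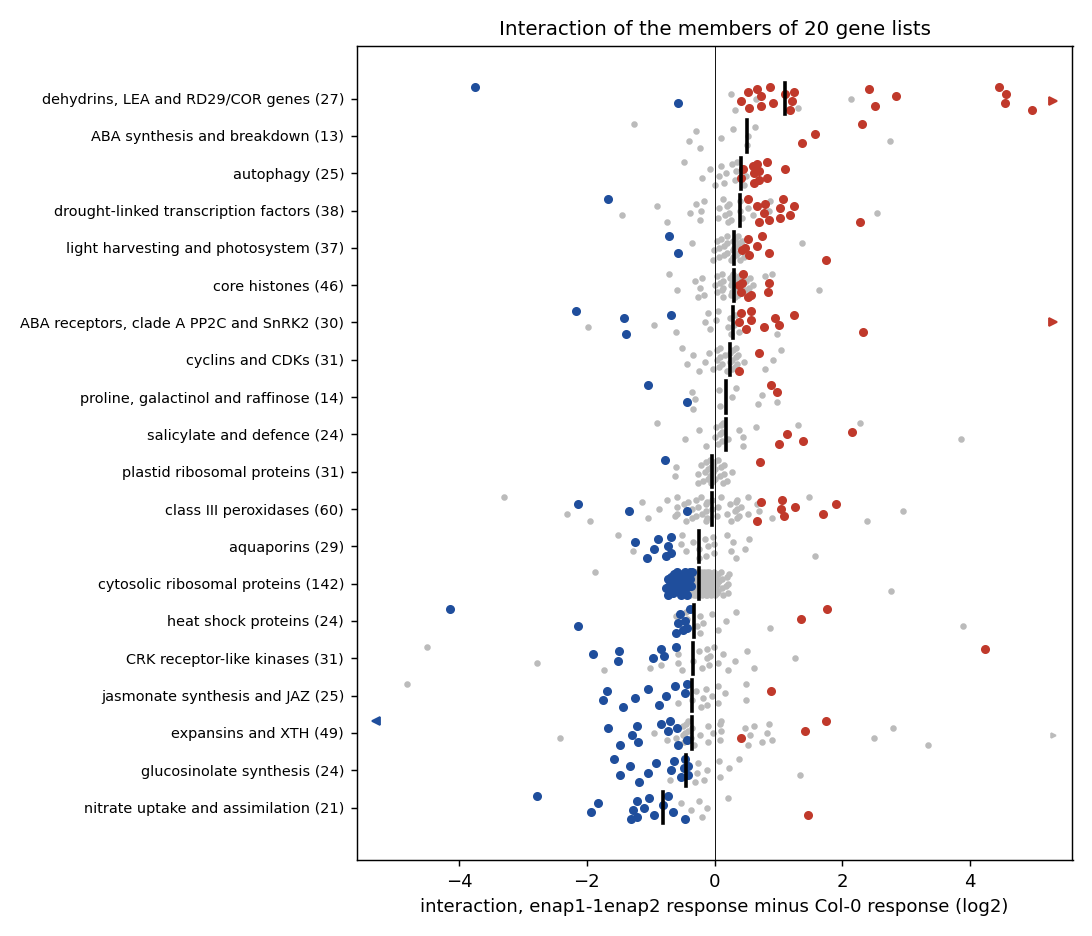
Interaction (log2) of every tested member of each gene list, with called members in red (higher) and blue (lower), members not called in grey, the list median as a black bar and values beyond the axis as arrowheads. Among the pathway lists the LEA list has the highest median, 1.101, and the nitrate list the lowest, -0.81.

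Of the genes tied to the ENAP proteins in the study, HDT4, a plant-specific histone deacetylase, stood at 62.3 and 70.9 CPM in Col-0 Mock, 46.5 and 40.8 CPM in Col-0 Dehydration, 82.0 and 87.2 CPM in enap1-1enap2 Mock, and 36.5 and 39.3 CPM in enap1-1enap2 Dehydration. MYB44, a MYB transcription factor that works with them, was at 56.9 and 64.0 CPM, 182 and 191 CPM, 48.1 and 51.6 CPM, and 139 and 126 CPM in the same order. HDT4 was lower after dehydration in both genotypes, and MYB44 was higher in both. The interaction was -0.55 ± 0.13 for HDT4 (adjusted p = 0.0117), -0.21 ± 0.12 for MYB44 (adjusted p = 0.277), 0.85 ± 0.21 for ENAP1 (adjusted p = 0.0129) and 0.54 ± 0.28 for ENAP2 (adjusted p = 0.209) by the quasi-likelihood F test of edgeR with Benjamini-Hochberg adjustment. The calls of HDT4 and ENAP1 were both lost without Col-0 Dehydration replicate 1, that of HDT4 also without enap1-1enap2 Mock replicate 2, and that of ENAP1 also without enap1-1enap2 Mock replicate 1. Of the 7 ENAP, MYB44 and HD2 deacetylase genes tested, 2 were called with all libraries, 0 without Col-0 Dehydration replicate 1, 1 without either enap1-1enap2 Mock library and 4 without Col-0 Mock replicate 2. MYB44 shares 1148 bases with AT5G67310, so its counts are uncertain.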

How the data were processed

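RNA-seq libraries of 8 samples in 4 groups were analysed, with groups taken from the labels. Per the labels, the authors trimmed reads with Trim Galore 0.6.7, mapped these to TAIR10 and assigned them to exons with featureCounts of Subread 2.0.1. The authors deposited these raw counts with no normalization, and counting used no strand, so overlapping genes cannot be told apart. Both mates of a read pair appear to be counted, so 2 counts can come from 1 molecule.

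In R 4.3.3, edgeR 4.0.16 and limma 3.58.1 were used. The filter on low counts was filterByExpr by group, the scaling was TMM, and all 8 libraries entered 1 quasi-likelihood fit in which every group had its own mean. The interaction and the 4 simple contrasts were tested from this model, and the interaction was called at a Benjamini-Hochberg adjusted p under 0.05 over 21614 genes. Standard errors are the log2 value divided by the square root of F. CPM use library sizes scaled by the TMM factors, and 3 counts, the floor, equal 0.0608 to 0.135 CPM. Floors cover counting error only. Scripts were tested on simulated data.

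Named genes were, among called genes that averaged 5 CPM or more and had an interaction over 2-fold, the 6 with the smallest p in each of 4 classes and the 4 in each direction among genes not called in Col-0. To these came every gene called in opposite directions at any level, up to 3 called members of each list with the largest values and a mean of at least 5 CPM, and ENAP1, ENAP2, MYB44, HDT4 and 6 genes of the qPCR assays, whatever their values. Other list members are named with their value alone, and EM1, LEA7, LEA18 and the seed markers were chosen after their values were seen. All members and lists were chosen with earlier results of these data known. Members of a list that were below the filter, between 0 and 14 per list, were not tested. Overlaps and the positions of promoters come from the gene coordinates in the count table. Sequences, gene names and descriptions come from RefSeq, in which 36632 of 36799 loci were found and 36449 had the same start and end.

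Alternatives were other scalings, filters, thresholds and class rules, DESeq2 1.42.0, limma-voom, halved counts, blocking on the replicate number, and fits without each library in turn. Figures were drawn with matplotlib 3.10.9 in Python 3.11.15.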

Additional observations from a re-analysis of the deposited data

Results flagged for a closer look

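The test of the difference itself found 3639 genes with a different response to dehydration in the 2 genotypes.

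In 8 genes the genotypes passed the study thresholds in opposite directions, induced in Col-0 but repressed in the mutant, and the difference passed as an interaction. It was -3.009 for RAP2.9, -3.384 for AT1G05675, -4.111 for GSTU11, -4.153 for DIN11, -4.82 for AT3G23550, -5.118 for AT4G12735 and -6.871 for SUC7. For TDR1 the fitted value was -12.06, which rests on 0 counts in both dehydrated mutants and depends on the prior count.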

How the results depend on the processing

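No call of the interaction shared with another setting had the opposite sign, and none of the 103 named genes reversed. The 3639 calls became 3692 with RLE scaling, 3662 with upper quartile scaling, 3413 with library size alone, 4392 without a filter, 3540 with DESeq2, 3315 with limma-voom and 3731 with halved counts. The labels do not say whether libraries with the same replicate number were grown together. Replicate differences correlated between -0.06 and 0.08 from group to group, which does not settle this. A fit with the replicate block called 3379 genes, 3307 of them shared. At an adjusted p under 0.01 there were 1671 calls, 798 higher and 873 lower, of which 283 were induced more, 171 induced less, 117 repressed more, 115 repressed less, and 400 higher and 585 lower among genes not called in Col-0. With classes from the mutant response these were 877 induced more, 103 induced less, 726 repressed more and 61 repressed less. With classes from the mean response 171 were induced less, 456 repressed more and 140 repressed less. With no fold limit on the Col-0 call they were 839, 669, 763 and 501, with 405 higher and 462 lower among genes not called.

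Leaving out 1 library gave 1801 to 4282 calls, 908 to 1962 higher and 893 to 2331 lower, and 734 to 1113 over 2-fold. It gave 298 to 476 genes induced more, 176 to 352 induced less, 130 to 272 repressed more, 134 to 324 repressed less, and 473 to 1272 higher and 587 to 1773 lower among genes not called. Most of the lowest counts came without enap1-1enap2 Mock replicate 1. A lone library is assumed to vary like the others. Between 2 and 9 named calls were lost by leaving out 1 library, 5 with DESeq2, 8 with limma-voom and 2 with the replicate block. Light harvesting had 19 calls with DESeq2 and 20 with library size alone. Without genes that differed 2-fold between replicates, an alternative chosen after seeing the data, 3591 calls remained, and the LEA list had 15 of 20.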

Other observations

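Gene families outside the lists were counted in the same way, and all 16 families were chosen after values of these data had been seen. Of 61 ABC transporters, which move hormones, lipids and waxes across membranes, 7 had a higher and 17 a lower response, or 39.3% called against 16.8% of all genes, and 9 of the latter were in the less induced class. ABCG40, an importer of ABA, stood at 6.32 and 5.31 CPM in Col-0 Mock, 29.2 and 37.9 CPM in Col-0 Dehydration, 25.4 and 26.6 CPM in enap1-1enap2 Mock, and 17.4 and 9.39 CPM in enap1-1enap2 Dehydration. Its mutant Mock level was near that of dehydrated Col-0, and the interaction was -3.48 ± 0.29 (adjusted p = 4.56e-06 by the quasi-likelihood F test of edgeR with Benjamini-Hochberg adjustment). Lipid transfer proteins had 17 higher and 5 lower members of 62, or 35.5% called, among them LTP3 at 1.75. Glutathione S-transferases had 12 higher and 6 lower of 50, or 36% called.

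Families of RNA and protein production differed in their share of calls. Of 49 genes of the nucleolus and rRNA processing, 16 had a lower and 1 a higher response, or 34.7% called, with a median interaction of -0.21. FIB1, a fibrillarin of the nucleolus, stood at 240.05 and 271 CPM in Col-0 Mock, 246 and 214 CPM in Col-0 Dehydration, 295 and 297 CPM in enap1-1enap2 Mock, and 179 and 173 CPM in enap1-1enap2 Dehydration. The mutant was above Col-0 under mock and below it after dehydration, with an interaction of -0.59 ± 0.13 (adjusted p = 0.0053 by the quasi-likelihood F test of edgeR with Benjamini-Hochberg adjustment), and NUC-L1, a nucleolin, had -0.70. Of 51 tRNA synthetases 14 had a lower and 2 a higher response, or 31.4% called. Of 253 pentatricopeptide repeat proteins, which process organelle RNA, 21 had a lower and 1 a higher response, or 8.7% called against 16.8% of all genes, with a median of -0.35. Proteasome subunits had 2 calls among 42, or 4.76%. The bZIP factors, found by gene description, had 3 calls among 54, or 5.56%, with 2 higher and 1 lower. Both shares were below the 16.8% of all genes. Descriptions do not cover the whole bZIP family, as GBF3, ABF3 and ABF2, named above, all had higher responses.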
